A study of Mus musculus with 6 samples.

Results

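A group of 107 circRNA probes, of 1797 on a mouse circRNA microarray (5.95%), was read well above background on arrays of diabetic db/db hearts and on no array of WT hearts. Detection on an array meant that 50% or more of a probe's usable spots carried the scanner software's mark for a signal well above background, the stronger of its marks. The 107 probes were those detected on 0 of 3 WT arrays and on at least 2 of 3 db/db arrays. The opposite rule, detection on at least 2 WT arrays and on no db/db array, found 0 probes. These marks chose the probes, so their number and the differences between the groups given here are a description and were not tested.

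Circular RNAs arise when the spliceosome joins the end of an exon back to the start of the same or an earlier exon, which leaves a closed ring without free ends. RNase R degrades linear RNA from its 3′ end and spares most rings, and a probe across the back-splice junction reads the ring and not the linear transcript of its gene. Heart muscle is rich in such RNAs, and most of them are present at low levels.

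The study compared circRNAs of the heart in diabetic and healthy mice. Per the labels, the WT group was hearts of male C57BL/6J mice (n = 3) and the db/db group hearts of male mice (n = 3) of a model of type 2 diabetes with high blood glucose, both at 3 months of age. All 6 RNAs, WT included, had been digested with RNase R before labelling with a single dye, so that no undigested RNA stands beside them. The db/db mouse carries a loss of the long leptin receptor in every tissue and is obese as well as diabetic, so a difference from WT belongs to the whole animal and not to glucose or to the heart alone. The methods of the study name C57BL/KsJ as the strain of both groups and mice of both genders. The labels give C57BL/6J for WT and males, so the strain of the controls is not settled. If the groups differed in strain, its part cannot be told apart from that of diabetes. The labels do not say that the 3 samples of a group came from separate mice, and the spread between them may be technical.

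The name "detected only in diabetic hearts" did not hold for most of these probes once a weaker mark of the same software was read. That mark, positive and significant, says that a spot was brighter than its local background. By it, 106, 107 and 105 of the 107 probes were present on WT replicates 1, 2 and 3, and 107 on each db/db array. On all 3 WT arrays together, 105 of the 107 carried it. Over all circRNA probes the share with this mark was 66.7%, 73.1% and 67.0% in WT and 79.2%, 80.4% and 67.9% in db/db. The probes are therefore described here as dim probes that passed the stronger mark on db/db arrays alone, and not as circRNAs absent from WT hearts.

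The strength of detection differed from array to array. The number of circRNA probes well above background was 618, 731 and 602 on WT replicates 1, 2 and 3, and 856, 865 and 676 on db/db replicates 1, 2 and 3. Of the 107 probes, 106, 105 and 32 were detected on db/db replicates 1, 2 and 3. Db/db replicate 3 thus detected fewer circRNAs than WT replicate 2 and 29.9% of the 107 probes.

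The db/db arrays that detected each probe fell into an uneven pattern. Db/db replicates 1 and 2 without replicate 3 accounted for 75 probes (70.1%), and all 3 db/db arrays for 29 (27.1%). Replicates 1 and 3 shared 2 probes, ASCRMP000090 and ASCRMP001208, and replicates 2 and 3 shared 1, ASCRMP001755. A further 76 probes were detected on no WT array and on a single db/db array, which was replicate 1 for 35, replicate 2 for 41 and replicate 3 for 0. On the other side, 3 probes were detected on a single WT array and on no db/db array, and for all 3 that array was WT replicate 2.

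The position on the slide followed the same line. That position was read from the end of the array identifier in the file headers, taken as row and column, and no other source used here states it. By this reading the 3 WT arrays and db/db replicate 3 lay in row 2 of the slide, whereas db/db replicates 1 and 2 lay in row 1. Within row 2, which holds both groups, 32 probes were detected on db/db replicate 3 and on no WT array, and 28 were detected on at least 2 WT arrays and not on db/db replicate 3. All 32 belong to the 107. The first count needed 3 arrays without detection and the second needed 1, so the sizes of these counts are not comparable. Row 1 holds db/db arrays alone and allows no comparison of its own. The part of the slide row in the difference between 107 and 0 was not tested.

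The signal at which a probe passed the stronger mark also varied between arrays. The dimmest detected circRNA probe had a background-corrected intensity of 21.3, 13.7 and 20.7 on WT replicates 1, 2 and 3 and of 13.9, 16.2 and 21.0 on db/db replicates 1, 2 and 3. The median intensity of the 107 probes was 13.7, 12.9 and 15.2 in WT and 21.5, 22.0 and 18.3 in db/db. The 107 probes were thus brighter on each db/db array than on any WT array by this median, yet so were all circRNA probes together, with a median log2 signal of 3.39, 3.37 and 3.52 in WT and 3.88, 3.99 and 3.53 in db/db. On db/db replicate 3 the median of the 107 stayed below the dimmest detected probe. On the log2 scale the median of the 107 lay 0.63 and 0.44 above that limit on db/db replicates 1 and 2. It lay below the limit on the other arrays, at -0.20 on db/db replicate 3 and at -0.63, -0.08 and -0.44 on WT replicates 1, 2 and 3. Although undetected in WT, 0, 37 and 4 of the 107 lay at or above the limit on WT replicates 1, 2 and 3. On db/db replicates 1, 2 and 3 these were 107, 105 and 38.

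The noise that the software assigned to each array ran beside this limit. Its estimate of additive error, the error that does not grow with the signal, was 4.50, 3.14 and 5.09 intensity units on WT replicates 1, 2 and 3 and 3.29, 3.53 and 4.56 on db/db replicates 1, 2 and 3. The 3 arrays with the lowest estimates, WT replicate 2 and db/db replicates 1 and 2, were the 3 with the most detected circRNAs. The repeat spots of the 107 probes also scattered less on those db/db arrays, with a median SD of log2 signal of 0.19 on both db/db replicates 1 and 2, 0.26 on replicate 3, and 0.36, 0.37 and 0.33 on WT replicates 1, 2 and 3. Other circRNA probes of like brightness had spot SDs of 0.19, 0.21 and 0.29 on the db/db arrays and 0.35, 0.38 and 0.35 on the WT arrays. The scatter of the 107 probes was thus close to that of like probes on the same array, and its part in their detection was not tested.

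Local background and negative controls bear on the mark itself and were compared between the groups as array measures. The median local background around circRNA spots was 24.0 ± 1.0 intensity units in WT and 23.5 ± 1.5 in db/db (SD, n = 3 each; p = 0.8, adjusted p = 0.9, two-sided exact permutation test). The median log2 signal of the 40 negative control probes was 2.12 ± 0.35 in WT and 2.05 ± 0.17 in db/db (SD, n = 3 each; p = 0.9, adjusted p = 0.9, same exact permutation test). With 3 arrays against 3 this test cannot give a p below 0.1, so it could not have called a difference at 0.05, and the adjustment covered these 2 measures.

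Individual spots gave a finer view, since each probe was printed 7 times. The share of the 107 probes' usable spots that were well above background was 3.64%, 22.6% and 1.89% on WT replicates 1, 2 and 3 and 86.6%, 87.3% and 28.4% on db/db replicates 1, 2 and 3. At least 1 such spot was found for 20, 81 and 12 of the 107 probes on WT replicates 1, 2 and 3. WT replicate 2 therefore held 1 or more passing spots for most of the 107 probes, short of the 50% that detection needed. No such spot on any WT array was found for 22 probes, and every spot on all 3 db/db arrays passed for 9. Both held for 3 probes, ASCRMP000135, ASCRMP000684 and ASCRMP000878, which were the most sharply divided of the 107 in these marks.

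Levels of single probes are given as log2 of the background-corrected signal after quantile normalization, which gives all arrays the same distribution of values. The probes named next were the 10 brightest in db/db among the 29 detected on all 3 db/db arrays, and the same 10 had the largest lower bounds of their difference. The files pair no circRNA probe with a circRNA name, a parent gene or a sequence, so the probes appear under their identifiers. A fold is given as a lower bound, "at least N-fold", because the WT signal was not well above background. For it, the WT level on each array was raised to the lowest level among detected circRNA probes there wherever the probe's own level was lower, and the db/db mean was compared with the mean of these levels. The bounds hold for these normalized values alone. In the log2 values that the study deposited, each of the 10 had a difference below its log2 bound. Where 3 values of a group are given, they stand in the order of replicates 1, 2 and 3. In whole hearts, fewer cells of a type and less RNA per cell cannot be told apart.

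ASCRMP000135 had the widest bound of the 107. It measured 3.49, 3.45 and 3.51 on WT replicates 1, 2 and 3 and 5.69, 4.55 and 5.27 on db/db replicates 1, 2 and 3, with means of 3.48 ± 0.03 and 5.17 ± 0.57 (SD, n = 3 each). The groups did not overlap, and the gap was wide against the WT spread but less so against the larger db/db spread. The bound in these values was at least 1.75-fold. Its log2 bound was 0.81, above the difference of 0.71 in the log2 values that the study deposited. Before normalization its intensity was 9.52, 9.30 and 10.8 in WT and 55.5, 29.1 and 41.5 in db/db. All 7 spots passed on each db/db array and none on any WT array, and the order of the db/db arrays, with replicate 2 lowest, was the same before and after normalization.

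ASCRMP000628 varied little among the db/db arrays. It measured 3.50, 3.90 and 3.44 on WT replicates 1, 2 and 3 and 4.94, 5.16 and 5.12 on db/db replicates 1, 2 and 3, with means of 3.62 ± 0.25 and 5.07 ± 0.12 (SD, n = 3 each). All db/db arrays lay above all WT arrays, the bound for the difference of means was at least 1.63-fold, and 1 of 7 spots passed on WT replicate 2. ASCRMP000878 measured 3.85, 3.60 and 4.03 in WT and 5.06, 4.73 and 5.08 in db/db, or 3.82 ± 0.21 against 4.96 ± 0.19 (SD, n = 3 each). Its db/db arrays were again all above its WT arrays, with a bound of at least 1.51-fold for the means.

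ASCRMP000118 varied more in WT than in db/db. It measured 4.09, 3.51 and 4.32 on WT replicates 1, 2 and 3 and 5.07, 4.82 and 4.95 on db/db replicates 1, 2 and 3, so that the groups lay apart with a lower bound of 0.58 for the log2 difference. ASCRMP001530 measured 4.14, 4.26 and 4.28 in WT and 5.25, 4.69 and 5.03 in db/db. Its groups lay apart too, and the bound for the difference of means was at least 1.46-fold, although 1, 3 and 1 of its 7 spots passed on WT replicates 1, 2 and 3. ASCRMP000684 measured 4.10, 3.91 and 4.38 in WT and 5.18, 4.52 and 4.75 in db/db. The gap between its highest WT array and its lowest db/db array was narrow beside the spread within each group, and the bound was at least 1.37-fold.

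The remaining 4 of the 10 had bounds of at most 1.35-fold. ASCRMP001419 came nearest to detection in WT, at 4.51, 4.34 and 4.72 on WT replicates 1, 2 and 3, with 2, 3 and 3 of its 7 spots well above background there. On db/db replicates 1, 2 and 3 it measured 4.99, 4.97 and 5.0, the tightest db/db values among the 10, and its bound for the means was at least 1.35-fold. Its absence from the WT count thus rested on fewer than 4 passing spots per array.

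ASCRMP000269 measured 4.16, 3.93 and 4.19 in WT and 4.84, 4.73 and 4.78 in db/db, at least 1.34-fold higher in db/db. ASCRMP000997 measured 4.12, 4.07 and 4.40 in WT and 5.03, 4.81 and 4.46 in db/db, at least 1.31-fold higher in db/db. ASCRMP001407 measured 4.20, 3.90 and 4.13 in WT and 4.91, 4.65 and 4.54 in db/db, at least 1.26-fold higher in db/db. In the last 2 probes db/db replicate 3 was the lowest db/db array, and in ASCRMP000997 it lay close above WT replicate 3. The groups of the 10 probes did not overlap, beside 23.5% of the 742 circRNA probes detected on at least 3 arrays with all db/db above all WT arrays. The 10 were picked as bright in db/db and undetected in WT, so nothing is read from this.

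Probes of the mixed patterns, named after their values were seen, showed that db/db arrays could disagree strongly. ASCRMP001208 measured 5.37 and 4.86 on db/db replicates 1 and 3, where all 7 spots passed, and 3.19 on db/db replicate 2, where none did. Its WT values of 4.08, 4.30 and 4.13 on replicates 1, 2 and 3 lay between those extremes, so the groups overlapped. ASCRMP001755 was the reverse among the db/db arrays, at 5.55 and 4.91 on replicates 2 and 3 and 3.56 on replicate 1, against 3.98, 4.10 and 4.20 in WT. In both probes the low db/db array was below every WT array. ASCRMP000090 measured 4.41, 3.63 and 4.38 on db/db replicates 1, 2 and 3 and 3.70, 3.41 and 3.36 on the WT arrays, with 6 of 6, 3 of 7 and 3 of 6 spots passing in db/db, so that WT replicate 1 lay above db/db replicate 2.

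The dimmest of the 107 in db/db, just inside the rule, overlapped WT after normalization. ASCRMP001729 measured 3.76, 3.87 and 4.08 in WT and 3.78, 3.86 and 3.46 in db/db. ASCRMP000685 measured 3.54, 3.61 and 3.57 in WT and 3.84, 3.78 and 3.56 in db/db. ASCRMP000176 measured 4.18, 4.0 and 3.78 in WT and 3.86, 3.81 and 3.57 in db/db. In ASCRMP000685 db/db replicates 1 and 2 were above every WT array and replicate 3 was not. The mean difference, db/db minus WT, was -0.20 for the first, 0.15 for the second and -0.24 for the third. Each was detected on db/db replicates 1 and 2 alone, with 0 of 7 spots passing on db/db replicate 3.

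Probes just outside the rule, detected on a single db/db array and close to passing on another, were mixed as well. ASCRMP000905 measured 4.03, 3.87 and 4.39 in WT and 4.38, 3.79 and 3.87 in db/db, with 6, 3 and 0 of 7 spots passing in db/db. ASCRMP000585 measured 2.42, 2.16 and 2.16 in WT and 4.12, 3.65 and 4.23 in db/db, with 7, 3 and 2 of 7 spots passing. ASCRMP000355 measured 3.32, 3.55 and 2.83 in WT and 3.63, 4.36 and 4.01 in db/db, with 3, 7 and 0 of 7 spots passing. The first overlapped between groups, while the other 2 were higher on every db/db array than on any WT array. ASCRMP000585 had 0 of 7 spots passing on every WT array, and no fold is given for it because its bound was under 1.

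The 107 probes ranged widely in their normalized difference, db/db minus WT. The median was 0.28 with quartiles of -0.02 and 0.61, beside a median of -0.01 over all 1797 circRNA probes. After another background correction, normexp with an offset of 50, the median of the 107 was 0.052. The offset is added to every intensity, and it shrinks log2 differences by arithmetic in probes as dim as these. Their median intensity per array was 12.9 to 22.0 before it. Of the 107, 79 were higher and 28 lower in db/db by their group means, and 3 were at least 1.5-fold higher at the lower bound. By the measured means, which for WT lay below detection, 30 of the 107 and 6.68% of all circRNA probes reached that fold. With every undetected array of either group raised to its detection limit, the median difference was -0.14. A pair of probes at the ends of the range, ASCRMP001758 and ASCRMP001106, were named after their values were seen. ASCRMP001758 measured 2.31, 2.50 and 2.00 in WT and 4.62, 3.70 and 4.26 in db/db, with 0 spots passing on any WT array. Its bound gave no fold because its db/db mean lay under the WT limit, so the size of its difference is not known. ASCRMP001106 measured 4.31, 4.21 and 4.51 in WT and 3.72, 3.79 and 3.79 in db/db. Although the rule placed it among the db/db detections, every db/db array was below every WT array in this probe once the arrays were normalized.

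Normalization moved these differences. Before it, 104 of the 107 probes had a higher mean in db/db, the median difference was 0.63, and that over all circRNA probes was 0.19. The position among circRNA probes of the same array changed little between groups. The median of the 107 stood at percentile 55.8, 55.1 and 55.7 on WT replicates 1, 2 and 3 and at percentile 59.7, 57.8 and 58.7 on db/db replicates 1, 2 and 3. The probes thus sat slightly above the middle of the array in both groups, and somewhat higher in db/db.

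The number of db/db arrays that detected a probe divided the 107 into unequal parts. For the 29 probes detected on all 3 db/db arrays the median difference was 0.64, and 28 of the 29 were higher in db/db by their means. For the 78 detected on 2 db/db arrays it was 0.17, with 51 higher and 27 lower. A fold could be given, with the bound above 1, for 26 of the 29 and for 8 of the 78. Of these 34 probes, 14 reached at least 1.2-fold and 3 reached at least 1.5-fold, whereas for the other 73 the bound gave none.

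Db/db replicate 3 carried the raised levels about as often as the other db/db arrays after normalization, although it detected far fewer of the probes. The median of the 107, each against its own WT mean, was 0.35, 0.24 and 0.27 on db/db replicates 1, 2 and 3. The probes above every WT array numbered 69, 64 and 65 on these arrays, and those below every WT array 12, 18 and 20. Over all circRNA probes, 32.5%, 34.5% and 36.4% were above every WT array on db/db replicates 1, 2 and 3. No such share was taken for the probes below every WT array, so nothing is read from their numbers. The SD between arrays had a median over the 107 of 0.15 in WT and 0.20 in db/db (n = 3 each).

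Over the 107 probes, db/db arrays correlated less with each other than WT arrays did. Pearson's r over the 107 probes, which share 1 slide and were chosen on these arrays, was 0.81, 0.83 and 0.75 between pairs of WT arrays. It was 0.27 between db/db replicates 1 and 2, 0.69 between 1 and 3, and 0.54 between 2 and 3. Among the db/db pairs, the pair in the same slide row thus had the lowest value. The WT arrays also shared a slide row, and their pairs had the higher values given above. Between a WT and a db/db array r lay between -0.04 and 0.21. These values describe probes and not replicate hearts. The rule chose the probes by their marks on both groups of arrays, which shapes r within each group, so nothing is read from the differences in r.

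All 3 db/db arrays lay above all 3 WT arrays in 48 of the 107 probes, beside 15.5% of all 1797 circRNA probes, and in 21 of the 29 detected on all 3 db/db arrays, beside 23.5% of the 742 circRNA probes detected on at least 3 arrays. The reverse separation was found in 15.4% of all circRNA probes, among them ASCRMP000439, ASCRMP001029 and ASCRMP001106 of the 107. In a limma fit across those 742 probes, 142 (19.1%) passed an unadjusted P of 0.05 and 1.5-fold in either direction, and 72 (9.70%) did so as higher in db/db. The 29 probes detected on all 3 db/db arrays were the part of the 107 that entered this fit. They entered through their db/db arrays alone, so the 17 of the 29 that were called carry no weight as a result. At the adjusted p, 8.63% of the 742 were called higher in db/db, among them 15 of the 29. At an adjusted p under 0.05 and any fold, limma called 104 of the 742 higher in db/db (14.0%), among them 17 of the 29. With the slide row as a block it called 3 (0.404%), among them 1 of the 29. The count at this adjusted p moved under other settings too. It was 36, 55 and 54 without WT replicates 1, 2 and 3, with 8, 10 and 11 of the 29 among them. Without db/db replicates 1, 2 and 3 it was 132, 146 and 56, with 15, 21 and 9 of the 29. The methods' t-test gave 59 with 6 of the 29. Because row 1 held db/db arrays alone, the blocked fit compared db/db replicate 3 by itself with the WT arrays. Its median log2 difference of the 29, which were chosen as detected on that array too, was 0.61, beside 0.64 without the block. At the unadjusted P and 1.5-fold the blocked fit called 59 of the 742 higher (7.95%), among them 13 of the 29. At the unadjusted P and 1.5-fold without the filter, 6.23% of the 1797 were called higher, among them 30 of the 107. Because the same contrast chose the probes, nothing is read from these counts.

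Detection on an array that took no part in the choice was read by leaving each array out in turn. Without db/db replicate 3 the rule chose 104 probes, and 29 of these (27.9%) were detected on it, beside 0.312% of the 962 other circRNA probes that no WT array detected and 37.6% of all circRNA probes. Without db/db replicate 1 it chose 30 and without db/db replicate 2 it chose 31, and 29 of each were detected on the array left out (96.7% and 93.5%). Beside them, 10.8% of 1036 and 11.3% of 1035 other probes undetected in WT were detected on those arrays, and 47.6% and 48.1% of all circRNA probes. The other probes undetected in WT were mostly the 883 that no array detected, so their low shares were largely set in advance. Without WT replicate 2 the rule chose 192 probes, and 85 of them (44.3%) were detected on WT replicate 2, beside 1.84% of the 977 other probes that WT replicates 1 and 3 did not detect and 40.7% of all circRNA probes. Without WT replicate 1 or WT replicate 3 it chose the same 107, and 0 were detected on the array left out. A single WT array, replicate 2, therefore set how many probes counted as undetected in WT.

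Db/db replicate 3 took no part in the choice of the 104 probes made without it, but the WT arrays did. The levels on db/db replicate 3 were read for these 104 probes. Their median difference from the WT mean was 0.25 with quartiles of -0.05 and 0.57, and 72 of the 104 (69.2%) were above the WT mean, beside 43.1% of the 962 other probes undetected in WT and 48.4% of all circRNA probes. On this array 62 of the 104 (59.6%) were above every WT array. The other 962 probes undetected in WT had a median of -0.01, and 284 of them (29.5%) were above every WT array, as were 36.4% of all circRNA probes. The other 962 were mostly the 883 probes that no array detected, so part of this contrast was set in advance. Probes are not replicates, and with 1 array no test was made.

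When every array was given the same number of detected probes, the imbalance between the groups shrank. Counting the 602 brightest circRNA probes of each array as detected, 36 probes met the rule and 25 met the reverse rule, and 12 of the 36 belonged to the 107. A single limit for all arrays on the normalized signal gave 38 and 22 probes, with 16 of the 38 among the 107. A single limit on the signal before normalization gave 93 and 3 probes, with 47 of the 93 among the 107. Requiring every spot to pass gave 88 and 2 probes, and requiring at least 1 spot gave 88 and 1, with 36 and 22 of the 107 respectively. By the weaker mark 84 and 2 probes met the rule and its reverse, and 0 of the 107 were among the 84. The number of probes was thus similar under several of these readings while the probes themselves differed.

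A small core met the rule under the equal number, under both single limits and within slide row 2. It held 11 probes, a set formed after the values were seen. They were ASCRMP000118, ASCRMP000135, ASCRMP000269, ASCRMP000628, ASCRMP000684, ASCRMP000722, ASCRMP000878, ASCRMP000997, ASCRMP001208, ASCRMP001530 and ASCRMP001755. The limits that formed the set were partly on the normalized signal, so a higher db/db level was built into it. As a description, the median difference was 0.69 with a range from 0.30 to 1.68. The groups did not overlap in 9 of the 11, beside 15.5% of all circRNA probes, and nothing is read from this count. The exceptions were ASCRMP001208 and ASCRMP001755. All 11 were also positive and significant on every WT array. ASCRMP000722, not described so far, measured 4.17, 3.58 and 4.14 in WT and 4.83, 4.18 and 4.91 in db/db, so that its lowest db/db array, replicate 2, barely cleared its highest WT array.

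The processed log2 table that the study deposited held 792 of the circRNA probes (44.1%). It held 71 of the 107 (66.4%) and 25 of the 29 detected on all 3 db/db arrays, so 36 of the 107 have no value there. In its values the 71 probes had a median difference, db/db minus WT, of 0.16, beside 0.03 over its 792 circRNA probes. Of the 71, 62 were higher and 9 lower in db/db, with a range from -0.14 to 0.71, and 1 was at least 1.5-fold higher. That probe was ASCRMP000135, at 0.71. The same 71 probes had a median of 0.38 in the quantile-normalized scanner values, and 67 had the same sign in both. The differences were smaller in the deposited table, whose lowest value was 4.89 and whose medians over all its probes were 6.50, 6.50 and 6.50 in WT and 6.50, 6.48 and 6.49 in db/db.

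Probes of other kinds on the same arrays were few. The rule found 1 of 50 linear transcript probes, 0 of 14 circRNA control probes, 0 of 40 negative control probes and 0 of 18 spike-in probes, and the reverse rule found 0 in each. The linear probe was that of Rab5a, a small GTPase of early endosomes. It measured 3.88, 4.13 and 3.84 on WT replicates 1, 2 and 3 and 3.83, 4.18 and 3.99 on db/db replicates 1, 2 and 3. The groups overlapped fully, and the share of its spots that passed was 0%, 30% and 0% in WT and 60%, 100% and 10% in db/db. Negative control probes were themselves detected in 1, 3 and 1 cases of 40 on WT replicates 1, 2 and 3 and in 3, 3 and 2 on db/db replicates 1, 2 and 3.

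The tissue could be checked against 1 of 12 cardiomyocyte markers, Hspb7, a small heat shock protein of heart muscle, the sole marker of that list with a probe. Its probe reads a linear transcript, so its values are of RNA that remained after digestion with RNase R. Hspb7 measured 9.19, 9.09 and 9.19 in WT and 8.95, 7.85 and 8.49 in db/db, with every spot above background on all 6. Every db/db array lay below every WT array in these normalized values, with a mean difference, db/db minus WT, of -0.72, and the lowest was db/db replicate 2. With scaling to the 75th percentile the mean difference was -0.68, and db/db replicate 1 lay above WT replicate 2. The array carried 0 of 3 endothelial, 0 of 4 fibroblast, 0 of 4 immune, 0 of 3 adipocyte and 0 of 4 red blood cell markers. A part of cell composition in the values of the 107 probes was therefore not tested.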

How the data were processed

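Heart RNA of 3 WT and 3 db/db samples was analysed, grouped by the sample labels. The authors deposited scanner output of Agilent Feature Extraction 11.0.1.1 with an intensity per spot, corrected for background within the array and not normalized between arrays, and with 0 or 1 marks per spot. The authors also deposited log2 values, quantile normalized per the methods of the study, whose filter and background correction are not given in the sources used here. Scale and direction of that table were checked against the scanner intensities.

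Spots marked as non-uniform or population outliers were left out, which removed 128, 96 and 112 circRNA spots on WT replicates 1, 2 and 3 and 214, 178 and 142 on db/db replicates 1, 2 and 3. No circRNA spot was saturated. The log2 signals of a probe's spots were averaged and quantile normalized over all probes other than control spots, in Python 3.11.15 with pandas 2.3.3 and numpy 2.4.6. Probes detected on at least 3 arrays were fitted with limma 3.58.1 in R 4.3.3, with Benjamini-Hochberg adjustment over the 742 fitted, and the code was tested on simulated data. Array measures were compared by exact permutation over the 20 assignments of 3 and 3. The number of arrays limits the precision.

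The members and lists were chosen with earlier results of these data known. Probes were named by rule: the 10 brightest in db/db among those on all 3 db/db arrays, the 10 with the largest bound, the 3 dimmest members, the 3 nearest outside and any meeting the reverse rule, of which there were 0. Names of 44 of 50 linear probes came from RefSeq accessions of GRCm38.p6. Alternatives covered detection, normexp correction, scaling, the filter, the methods' t-test, the replicate number and slide row as blocks, and each array left out.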

Additional observations from a re-analysis of the deposited data

Results flagged for a closer look

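The probe of the linear transcript Rab5a lay outside the circRNA probes and still met the rule of detection on at least 2 db/db arrays and on no WT array. It was the sole one of 50 linear transcript probes to do so. Its measured normalized log2 difference, db/db minus WT, was 0.045, with means over overlapping arrays. The WT signal was not well above background, so nothing is read from this value about the levels. The cause of its detection pattern was not tested.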

How the results depend on the processing

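The count of 107 was within 1.5 times under 9 of 17 alternatives. It was 36 with the same number of brightest probes on each array, 29 when all 3 arrays of a group were required, 183 when 1 was enough, 32 within slide row 2 and 38 with a single limit on the normalized signal. Leaving out 1 array gave 30 to 192, the extremes being WT replicate 2 left out (192) and db/db replicate 1 left out (30, beside 31 for db/db replicate 2). The reverse count of 0 became 2 with every spot required and 1 with at least 1 spot. It was 1 with marked spots kept and 2 by the weaker mark. With equal numbers it was 25, with the 95th percentile of negative controls as the limit 7, and with 1 array enough 3. Within slide row 2 it was 28, where only 1 db/db array had to lack detection, so it is not comparable with the 32. Single limits on the processed and the normalized signal gave 3 and 22, and leaving out 1 array gave 0 to 1.

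The median difference of 0.28 was 0.35 with scaling to the 75th percentile and 0.34 to the median, which moved the median of all circRNA probes to -0.09 and -0.10. It was 0.052 after normexp with an offset of 50, which shrinks log2 differences of dim probes by arithmetic. In the authors' processed values it was 0.16. The median difference reversed to -0.14 with dim arrays set to the lowest signal above background, by construction of that bound. Without 1 array it lay between 0.23 and 0.29.

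Of 742 probes, limma called 142 in either direction, but 42 after normexp and 62 of 792 in the authors' values. Without 1 array the count was 130 to 176. Called members, 17 of 29, became 0 of 29 after normexp in limma, where the added offset shrinks the folds of dim probes. At an unadjusted P of 0.05 and any fold, normexp gave 17 of 29 and 37.9% of the 742, against 21 of 29 and 42.3% before. In the authors' values 1 of 71 members was called. Without a filter it was 30 of 107 members (208 of 1797 probes, 11.6%). With detection on at least 2 arrays it was 30 of 107 (159 of 835 probes, 19.0%), and without 1 array 12 to 18 of 29. The methods' t-test called 15 of 29 and 129 of 742 (17.4%). Blocking on the replicate number, 144 probes and 17 members were called. Same-numbered arrays deviated with correlations of 0.11, 0.35 and -0.04, and differently numbered arrays of the 2 groups with -0.37 to 0.34. These values do not settle whether the numbers paired the samples. With the slide row as a block, 131 probes and 13 members were called. At an adjusted p under 0.05 and any fold, all probes higher in db/db went from 104 to 3 and members from 17 to 1, with the members' median difference at 0.61 against 0.64. Those counts were 36 to 146 and 8 to 21 without 1 array, and 59 and 6 by the methods' t-test. With the block, the group difference rested on db/db replicate 3 alone against the WT arrays, since row 1 held db/db arrays alone. The block also leaves fewer residual degrees of freedom, and the part of each in the lower counts was not tested.

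The local background difference of -0.50 lay between -1.25 and 0.25 without 1 array, and was 0.25 without db/db replicate 2. The negative control difference of -0.07 was 0.048 by the mean over spots and between -0.26 and 0.076 without 1 array, its sign turning without WT replicate 3 (0.076) and db/db replicate 1 (0.0016). Under 75th percentile scaling, median scaling and normexp the Hspb7 difference stayed negative, from -0.69 to -0.60. The single limits, the slide row block and these readings of Hspb7 were chosen after seeing the data. Other causes were not tested. Signal close to background limits every value of the 107 probes.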
